A study of Mus musculus with 40 samples.

Results

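The comparison described here is the loss of both Ctbp genes in mouse embryonic stem cells that carry a Dppa2 knockout. Its members are 4 of the 40 samples of the series, chosen by their column names in the deposited table of genotypes, which holds 12 RNA libraries. The 2 DKO-Dppa2 libraries (column names DKO_Dppa2_KO, read as the Ctbp double knockout with Dppa2 knocked out) were set against the 2 Dppa2KO libraries. Both groups carry the Dppa2 knockout and derive from E14tg2a, an established mouse line that was cultured in GMEM with serum and the cytokine LIF, which maintains self-renewal. The labels of DKO-Dppa2 conflict. The title and the genotype field of these samples read Dppa2_DuxTKO, a name with Dppa2 and Dux and without Ctbp, whereas the description gives DKO_Dppa2_KO, and the description was followed. No label gives the knockout method, the number of clones per genotype or whether the 2 libraries of a group came from separate cultures, so p-values measure the spread between these libraries, which may be technical.

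CtBP1 and CtBP2 are corepressors without DNA-binding activity of their own. They are brought to genes by factors such as ZEB1 and ZEB2, which recognise E-box sequences in the promoters of epithelial genes, and they assemble histone deacetylases and the demethylase LSD1, encoded by Kdm1a. Dppa2, with its partner Dppa4, binds CpG-rich promoters in embryonic stem cells, keeps a group of developmental and germline promoters free of DNA methylation and acts upstream of Dux, the factor that starts the programme of the 2-cell embryo.

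For comparison, Ctbp loss was also read in 2 other backgrounds of the same line with 2 libraries per group. In cells with Dppa2 and Dux, CtbpDKO (both Ctbp genes knocked out) was set against WT (wild type). In cells without Dux, Ctbp-Dux TKO was set against DuxKO. Totals ran from 19944644 to 36025046 counts in the 4 libraries, lowest in DKO-Dppa2. Counts per library are given as deposited, replicate 1 first, so equal counts stand for a higher level in DKO-Dppa2, whereas fold changes and CPM (counts scaled by library size to a common total) are scaled. The knocked-out genes were examined as a check of the labels. In DKO-Dppa2, Ctbp1 had 4 and 0 counts, against 2225 and 2156 in Dppa2KO, and Ctbp2 had 729 and 872 against 8575 and 8153, a log2 fold change of −2.67 (SE 0.08). Ctbp2 reads were thus lower but far from 0, and it is not stated which part of the gene was removed. Without DKO-Dppa2 replicate 1 or 2 the fitted log2 fold change of Ctbp1 (−9.31) was −13.87 or −8.23. Dppa2 itself still had 1208 and 1027 counts in Dppa2KO and 426 and 464 in DKO-Dppa2, a difference of −0.61 (SE 0.11, adjusted p 0.000923). Its level was 59.1 ± 2.57 CPM in WT against 31.2 ± 2.92 in Dppa2KO and 20.5 ± 1.19 in DKO-Dppa2 (SD, n = 2 each). No source used here gives the part of Dppa2 that was removed, so its counts do not settle whether the knockout is complete. All adjusted p-values are from edgeR's quasi-likelihood test over 21193 genes with Benjamini-Hochberg adjustment, and a gene is called when this value is below 0.05. Duxf3, the Dux gene of the table, had 0 counts in all 4 libraries, so the counts do not tell a Dux knockout from silent Dux. Markers of embryonic stem cells were abundant in all 4 libraries, with Pou5f1 at 631 ± 51.7 CPM (SD, n = 2) in DKO-Dppa2 and 1026 ± 137 in Dppa2KO. In bulk RNA, fewer cells of a type and less RNA per cell cannot be told apart.

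Of the 21193 genes tested, 30.4% were called, 15.2% higher and 15.2% lower in DKO-Dppa2. The median log2 fold change of all genes was 0.01. Changes of 8-fold or more were found in 423 higher and 103 lower genes, so the largest changes were mostly increases. Of the 6452 called genes 6440 had libraries that did not overlap between the groups. Such separation largely follows from the call and adds no support to it. The share among all tested genes is not given here. Under an added minimum of 2-fold 1610 genes remained called higher and 985 lower. For a gene with at most 3 counts in each library of the lower group, the fold is a lower bound computed against 3 counts per library, which covers counting error only.

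Genes that went from near silence to clear expression led the increases. Misp, which encodes an actin-bundling protein of the mitotic spindle and cell cortex, had 0 and 0 counts in Dppa2KO and 153 and 195 in DKO-Dppa2, and Lamb3, the beta chain of laminin-332 in epithelial basement membranes, had 1 and 0 and 141 and 123. Klf17, a Krüppel-like transcription factor, had 2 and 0 counts against 75 and 84 and was at least 43-fold higher. Slfn9, a Schlafen family gene, had 2 and 0 against 87 and 75 and was at least 44.3-fold higher. In each of these 4 genes the Dppa2KO libraries were at or below 2 counts. They and the other genes with the largest changes were chosen among called genes whose groups do not overlap. Rhox5, a homeobox gene of the X chromosome, had 715 and 804 counts in DKO-Dppa2 against 29 and 24 in Dppa2KO, a log2 fold change of 5.55 (SE 0.30, edgeR adjusted p 2.95e-08). Fmr1nb, a testis antigen gene, rose from 4 and 4 to 103 and 143 counts (SE of the log2 fold change 0.47), and Klk10, a secreted serine protease, rose by 5.58 (SE 0.36). Man2b2, a lysosomal mannosidase, had 2 and 6 counts against 141 and 180, and its value of 5.99 was 5.38 without Dppa2KO replicate 1 and 6.95 without Dppa2KO replicate 2. Krt19, a keratin, had 2 and 5 counts against 107 and 175, with a value of 5.97 that was 6.75 without Dppa2KO replicate 2. Pnma5 (5.68, SE 0.42), derived from a retrotransposon, also rose by more than 8-fold. The rise of Csf2ra, Crxos, Rimbp2 and Plek2 was of the same order on the log2 scale (6.08, 5.68, 5.54 and 5.50) but rested on few control counts. Without Dppa2KO replicate 1 or 2 these values were 9.88 or 5.15 for Csf2ra, 4.70 or 9.49 for Crxos, 10.28 or 4.58 for Rimbp2 and 4.89 or 6.46 for Plek2.

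Among the decreases, several genes were well expressed in Dppa2KO cells. Grb10, an imprinted adaptor that restrains insulin signalling, fell from 8147 and 8065 to 199 and 255 counts, a log2 fold change of −4.44 (SE 0.10, edgeR adjusted p 4.51e-12). Ccnd2, which encodes cyclin D2, fell from 3170 and 3539 to 95 and 121 counts (−4.24, SE 0.12). Bahcc1, a chromatin reader, had 117 and 101 counts against 2179 and 2237 (−3.61, SE 0.17), and Sall3, a zinc finger relative of Sall4, had 134 and 181 against 2678 and 2921 (−3.44, SE 0.13). Eya1, a transcriptional coactivator and phosphatase, fell by 3.29 (SE 0.42) and Ankrd34a by 4.02 (SE 0.20). Madcam1 (−4.11), a mucosal adhesion molecule, H2-DMb1 (−3.72), which helps load peptides on class II molecules, Col14a1 (−3.64), a fibril-associated collagen, and Fbxo40 (−4.28) also fell, each to 6 counts or fewer per library. Sh3rf2 fell by 3.38, and She fell by 3.60, or by 4.27 without DKO-Dppa2 replicate 1. Heph, a copper-dependent iron oxidase, had 50 and 50 counts in Dppa2KO and 0 and 0 in DKO-Dppa2. Cplx2 differed within Dppa2KO, with 552 and 2788 counts, and fell to 6 and 2. Its value of −7.97 was −9.05 or −7.28 without DKO-Dppa2 replicate 1 or 2 and −8.73 or −6.34 without Dppa2KO replicate 1 or 2.

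**Figure D1:**
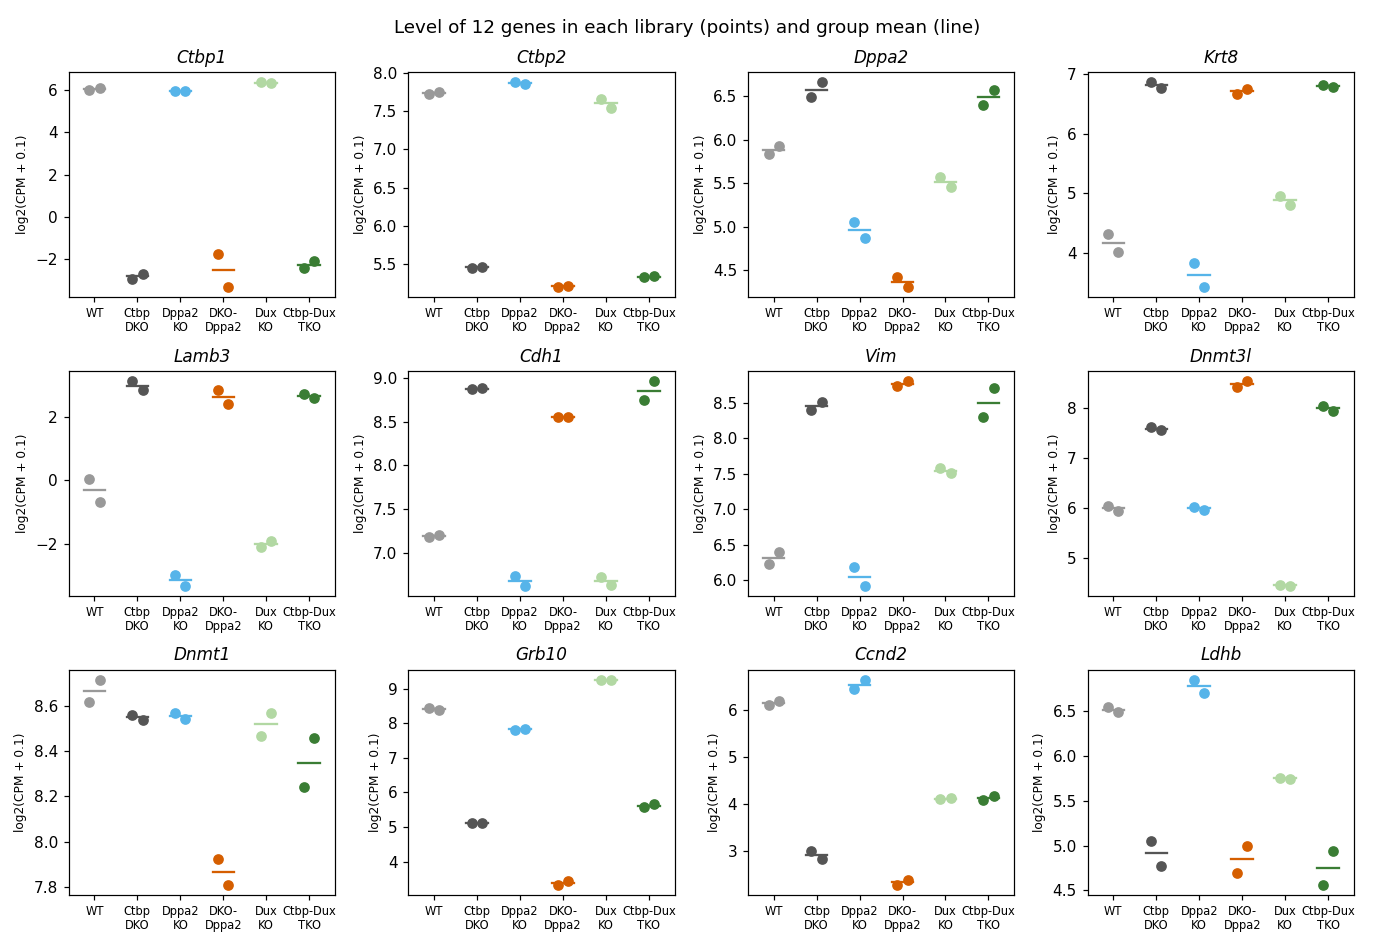
Levels of 12 genes as log2(CPM + 0.1) in each of the 12 libraries (points) with the mean of the log values per group (line); the vertical axes differ between panels and do not start at 0. The DKO-Dppa2 points of Krt8, Lamb3, Cdh1, Vim and Dnmt3l lie above both Dppa2KO points, and those of Ctbp1, Ctbp2, Dppa2, Dnmt1, Grb10, Ccnd2 and Ldhb lie below them.

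Genes of epithelial junctions and keratins were higher as a group. Of 47 tested members 33 (70.2%) were called higher and 5 (10.6%) lower, beside 15.2% in each direction for all genes, and the median log2 fold change was 1.19 beside 0.01. Cdh1, which encodes E-cadherin, had 7515 and 8857 counts in DKO-Dppa2 against 3849 and 3462 in Dppa2KO, or 376 ± 0.785 against 102 ± 5.49 CPM, and rose by 1.88 (SE 0.09, edgeR adjusted p 1.88e-08). Krt8, a keratin of simple epithelia, had 2038 and 2538 counts against 514 and 375 (3.08, SE 0.14), and its partner Krt18 had 464 and 528 against 187 and 172 (2.18, SE 0.12). All 3 genes were higher in both DKO-Dppa2 libraries than in either Dppa2KO library. Dsc2, a desmosomal cadherin, rose by 3.17 (SE 0.53). The other called increases included the splicing regulators Esrp1 and Esrp2, the desmosomal genes Dsp, Dsg2, Pkp2 and Pkp3, and the claudins Cldn4, Cldn6 and Cldn7. The 5 members that fell were Grhl2 (−1.42, SE 0.15), a grainyhead transcription factor of epithelia, Cldn3 (−1.38), Ocln, Epcam (−0.98, SE 0.11) and Tjp1. Epcam, an adhesion molecule that embryonic stem cells express, had 501 and 647 counts against 1906 and 1805. Ocln (−1.13) was not called without DKO-Dppa2 replicate 1 (adjusted p 0.202), Dppa2KO replicate 1 (0.0784) or Dppa2KO replicate 2 (0.0652), and was −1.80 without DKO-Dppa2 replicate 2. The genes named here without values other than Ocln, and Crb3 and Lsr below, lie outside the rule for named genes and were chosen after their values were seen.

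Promoter sequences of 5 epithelial genes and of Lamb3, which belongs to the laminin list, are shown because the E-box CACCTG is a sequence that ZEB factors, which bring CtBP to promoters, recognise. RefSeq windows of 300 bases on GRCm38.p6, from 250 before to 50 after the annotated start, were searched for CACCTG on both strands (CAGGTG on the other strand, with no overlap with a second motif counted). Capitals mark each match, and bases run 5′ to 3′ along the gene. Crb3, an apical polarity gene (chr17:57061951-57062250, plus strand), and Lsr, a gene of tricellular junctions (chr7:30973420-30973719, minus strand), held 4 matches each. Krt8 (chr15:102004293-102004592, minus strand) and Krt18 (chr15:102027966-102028265, plus strand) held 1 each, Lamb3 (chr1:193301993-193302292, plus strand) held 2, and Epcam (chr17:87635729-87636028, plus strand), which fell, also held 2.
Crb3: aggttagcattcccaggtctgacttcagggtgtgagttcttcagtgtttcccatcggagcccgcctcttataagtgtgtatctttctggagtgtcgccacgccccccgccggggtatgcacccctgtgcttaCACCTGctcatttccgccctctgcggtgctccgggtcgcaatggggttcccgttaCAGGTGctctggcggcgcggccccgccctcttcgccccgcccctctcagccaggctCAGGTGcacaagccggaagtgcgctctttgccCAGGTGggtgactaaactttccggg
Lsr: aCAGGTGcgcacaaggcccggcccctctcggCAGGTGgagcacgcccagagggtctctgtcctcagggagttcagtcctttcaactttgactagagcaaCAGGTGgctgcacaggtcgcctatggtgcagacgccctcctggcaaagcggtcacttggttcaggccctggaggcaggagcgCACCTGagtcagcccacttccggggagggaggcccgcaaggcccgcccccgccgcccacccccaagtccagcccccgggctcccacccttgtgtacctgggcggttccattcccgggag
Krt8: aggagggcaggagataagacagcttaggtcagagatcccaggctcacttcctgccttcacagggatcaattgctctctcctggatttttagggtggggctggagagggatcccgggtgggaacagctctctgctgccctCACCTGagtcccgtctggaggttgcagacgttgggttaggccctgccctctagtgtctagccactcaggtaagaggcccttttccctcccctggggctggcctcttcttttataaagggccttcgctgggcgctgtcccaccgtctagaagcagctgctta
Krt18: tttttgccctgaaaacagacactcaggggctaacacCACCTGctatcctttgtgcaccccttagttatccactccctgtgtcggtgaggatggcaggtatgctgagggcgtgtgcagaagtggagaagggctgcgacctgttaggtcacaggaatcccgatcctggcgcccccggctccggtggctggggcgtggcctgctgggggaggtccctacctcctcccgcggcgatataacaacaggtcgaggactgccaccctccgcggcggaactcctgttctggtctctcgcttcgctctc
Lamb3: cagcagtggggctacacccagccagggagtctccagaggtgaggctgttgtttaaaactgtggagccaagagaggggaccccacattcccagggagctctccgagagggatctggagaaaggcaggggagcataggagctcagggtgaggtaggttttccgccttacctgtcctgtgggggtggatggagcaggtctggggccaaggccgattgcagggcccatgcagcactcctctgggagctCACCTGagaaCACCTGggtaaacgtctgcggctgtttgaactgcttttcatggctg
Epcam: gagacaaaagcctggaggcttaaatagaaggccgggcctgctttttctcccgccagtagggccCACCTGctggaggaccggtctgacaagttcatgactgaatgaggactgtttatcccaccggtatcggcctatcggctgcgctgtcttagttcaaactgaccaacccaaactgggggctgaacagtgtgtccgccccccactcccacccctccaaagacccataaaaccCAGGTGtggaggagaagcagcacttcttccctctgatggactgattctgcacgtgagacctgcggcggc
In the Lamb3 window the matches begin 6 bases before and 4 bases after the start. In the Krt8 window the match begins 111 bases before it. Of the 18 members of the epithelial list that were called higher and had a window, 17 (94.4%) held the sequence, as did 3 of the 7 others with a window (42.9%), namely Cldn3, Epcam and Ocln, which fell. In the laminin and hemidesmosome list 2 of 6 members called higher (33.3%) and 3 of 7 others (42.9%) held it. Among all tested genes with a window the share was 22.4% of 12523, and 20.2% of all 32851 windows held it. The share was 29.2% of 2141 among genes called higher and 19.6% of 2101 among genes called lower. A gene with several windows counts if any of them holds the sequence, and for Lamb3 this was 1 of its 2 windows. For Crb3 and Lamb3, with 2 windows each, the window printed is the one with the most matches. Cdh1, Misp and Krt19 were not in the table of windows. Crb3 had 129 and 182 counts against 91 and 112 (1.32, SE 0.21) and Lsr 990 and 1324 against 1358 and 1197 (0.57, SE 0.10). Both were thus higher in DKO-Dppa2, but by far less than Lamb3, so the number of matches did not order the changes among the genes printed here. Binding of ZEB factors or CtBP was not measured in the data used here. The part of the E-box in these changes was not tested, and the lists were chosen with earlier results of these data known.

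Mesenchymal genes moved in both directions. Of 14 tested members 4 were called higher and 4 lower (28.6% each), beside 15.2% of all genes in each direction, and the median was −0.03. Vim, which encodes vimentin, rose from 2630 and 2126 to 8491 and 10566 counts (2.72, SE 0.14, edgeR adjusted p 1.92e-08), in the same libraries in which Cdh1 rose. Snai1, an E-box repressor, had 55 and 51 counts against 21 and 22 (2.02, SE 0.44), Sparc, a matrix glycoprotein, rose by 1.23 and the gelatinase gene Mmp2 by 1.14. Without Dppa2KO replicate 2 the number lower was 2. Fn1, which encodes fibronectin (−0.87, SE 0.10), and Cdh2, which encodes N-cadherin (−0.70, SE 0.14), fell. The CtBP partners Zeb1, at 272 and 324 counts against 447 and 538 (−0.01, SE 0.13, adjusted p 0.97), and Zeb2 (−0.26, SE 0.42, adjusted p 0.68) did not pass the test. Their signs turned under some alternatives, and Zeb2 was −1.28 without DKO-Dppa2 replicate 1 and 0.37 without DKO-Dppa2 replicate 2.

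Basement membrane genes moved in both directions. Of 21 tested laminin and hemidesmosome genes 9 (42.9%) were called higher and 6 (28.6%) lower, with a median of 0.25. The share of all genes was 15.2% in each direction. Beside Lamb3, Itga3, the alpha chain of a laminin receptor, rose from 1252 and 1241 to 1873 and 2269 counts (1.45, SE 0.09), and Col17a1, a hemidesmosomal collagen, had 4 and 8 counts against 0 and 0 (at least 3.17-fold higher). The chains of laminin-111 went the other way. Lama1 fell from 2404 and 2944 to 485 and 555 counts (−1.65, SE 0.12), Lamb1 by 1.17 (SE 0.11), and Hspg2, the heparan sulfate proteoglycan perlecan, by 1.04 (SE 0.11). Lamb2 fell by 0.93. The change on Ctbp loss was more negative in Dppa2KO than in WT cells for 10 of the 21 by the interaction test and more positive for 1, and leaving out a single library gave 7 to 13 and 1. Of all genes 5% were called more negative and 3.23% more positive in this interaction. Without the genes of chromosome 8, an alternative chosen after the data were seen, 6 of 18 were higher and 6 lower.

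Targets of serum response factor and smooth muscle genes were called higher in 11 of 18 tested members (61.1%) and lower in 2 (11.1%), with a median of 1.17. The share of all genes was 15.2% in each direction. The early response genes Egr1 (83 and 121 counts against 46 and 37, 2.00, SE 0.28) and Fos (49 and 43 against 26 and 18, 1.79, SE 0.41) and Thbs1, a matricellular glycoprotein (1.53, SE 0.20), rose. The abundant cytoskeletal genes Flna, which encodes filamin A (−0.82, SE 0.09), and Tpm2, a tropomyosin (−1.25, SE 0.14), fell. The 11 increases ran from 0.35 to 2.00. The summed level of the list was 1077 and 1092 CPM in DKO-Dppa2 against 1163 and 1255 CPM in Dppa2KO. Its median was 0.91 or 0.95 without DKO-Dppa2 replicate 1 or 2 and 0.83 or 1.21 without Dppa2KO replicate 1 or 2. In CtbpDKO against WT the same list had 4 called higher and 4 lower (median 0.21), beside 14.7% and 11.4% of all genes in that comparison. By the interaction test the change on Ctbp loss was more positive in Dppa2KO than in WT cells for only 5 of the 18. It was more negative for 3, beside 3.23% more positive and 5% more negative among all genes.

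Glycolysis went the other way from the epithelial list. Of 29 tested members 19 (65.5%) were called lower and 3 (10.3%) higher, beside 15.2% of all genes in each direction. The median was −0.60. The 19 decreases ran from −0.27 to −1.93 and reached from glucose uptake to lactate dehydrogenase. The glucose transporter gene Slc2a3 fell from 20412 and 21102 to 5801 and 6721 counts, or from 580.2 ± 25.9 to 288 ± 4.08 CPM (−1.01, SE 0.08, edgeR adjusted p 1.17e-06). Pfkl, a phosphofructokinase subunit, fell by 0.85 (SE 0.08), Aldoc, an aldolase, by 1.68 (SE 0.17), and Ldhb, a lactate dehydrogenase subunit, from 4199 and 3687 to 517 and 749 counts (−1.93, SE 0.14). Both libraries of DKO-Dppa2 were below both of Dppa2KO in each of these genes after scaling. The summed level of the list was 10433 and 10625 CPM in DKO-Dppa2 against 16035 and 14814 CPM in Dppa2KO. The 3 members that rose were Hk1 (0.76, SE 0.12), a hexokinase, Pfkp (0.79, SE 0.08), another phosphofructokinase subunit, and Mpc1 (0.83, SE 0.17), a mitochondrial pyruvate carrier.

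Glycolysis genes also differed between Dppa2KO and WT, a comparison that shares the Dppa2KO libraries, so its values are only set beside those above. There 15 glycolysis genes were called higher and 0 lower by edgeR with a median of 0.32, beside 7.67% and 8.69% of all genes. Slc2a3 stood at 348 ± 3.21 CPM in WT and 293 ± 2.61 in CtbpDKO (SD, n = 2 each). In CtbpDKO against WT, which shares no library with the pair described here, 5 members were called higher and 9 lower and the median was −0.02. The change on Ctbp loss was more negative in Dppa2KO than in WT cells for 14 of the 29 by the interaction test, and more positive for 0, beside 5% and 3.23% of all genes. With a single library left out between 8 and 13 members were called more negative, with 8 without DKO-Dppa2 replicate 1 or CtbpDKO replicate 1 and 9 without WT replicate 1 or 2. Slc2a3 (interaction −0.76, edgeR adjusted p 0.00203), Pfkl (−0.62, adjusted p 0.00399) and Hk1 (−1.29, adjusted p 0.000844) were among them.

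**Figure D2:**
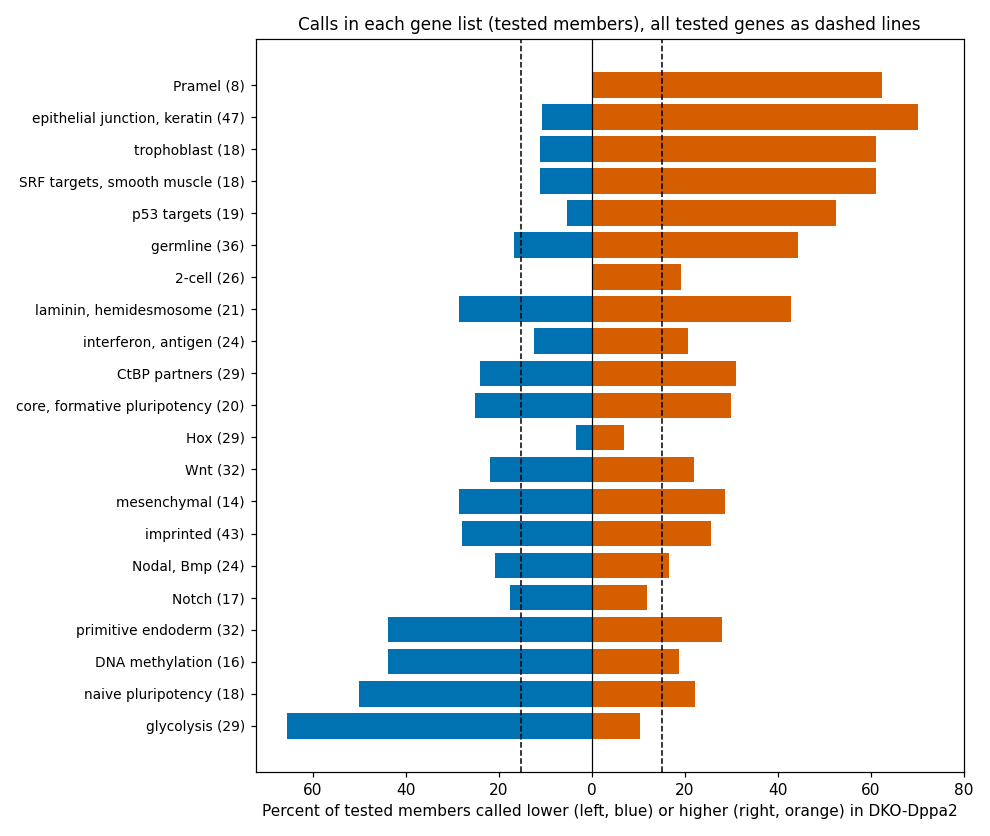
Share of the tested members of each gene list (number of tested members in brackets) called higher to the right and lower to the left in DKO-Dppa2 against Dppa2KO, in percent; dashed lines mark 15.2% of all tested genes in each direction. The epithelial list reaches 70.2% higher and the glycolysis list 65.5% lower.

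Naive pluripotency genes were lower more often than higher. Of 18 members, all tested, 9 (50%) were called lower and 4 (22.2%) higher, beside 15.2% of all genes in each direction. The median was −0.29. Gbx2, a homeobox gene downstream of leukaemia inhibitory factor, fell from 3457 and 3673 to 378 and 542 counts (−2.25, SE 0.12), Nr0b1, an orphan nuclear receptor, by 1.10 (SE 0.08), and Prdm14 by 0.91 (SE 0.18). Tdh, the threonine dehydrogenase of embryonic stem cells, fell by 1.07 (SE 0.22). Nanog had 2811 and 3510 counts against 7129 and 6448 and fell by 0.39 (SE 0.08, edgeR adjusted p 0.00264), while Klf4 (−0.20, SE 0.11, adjusted p 0.185) did not pass the test. Dppa3, a maternal factor that protects methylation marks, rose from 10 and 18 to 49 and 59 counts (2.65, SE 0.46), Tcl1, a kinase coactivator, by 1.15 and Tbx3 by 0.45. Among 20 core and formative factors 6 (30%) were called higher and 5 (25%) lower, beside 15.2% of all genes in each direction. Pou5f1 fell by 0.70 (SE 0.10), Foxd3 by 1.16, Lef1 by 1.42 and Etv5 by 0.46. Zic2 (0.68), Utf1 (0.61) and Otx2 (0.57) rose. Sox2 (−0.25, adjusted p 0.0409) was called, but without DKO-Dppa2 replicate 1 or 2 or Dppa2KO replicate 1 or 2 its adjusted p was 0.0945, 0.176, 0.0691 or 0.142.

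In the DNA methylation machinery, 3 genes of de novo methylation rose and the maintenance enzyme gene Dnmt1 fell. Of 16 genes 3 (18.8%) were called higher and 7 (43.8%) lower, with a median of −0.28. The share of all genes was 15.2% in each direction, so the number higher lies near it. Dnmt3l, the catalytically inactive cofactor of de novo methylation, had 6912 and 8854 counts against 2369 and 2213, Dnmt3b rose from 2163 and 2313 to 4501 and 5132 (1.82, SE 0.09, edgeR adjusted p 1.92e-08), and Dnmt3c, a rodent paralogue of Dnmt3b, from 63 and 15 to 97 and 121 (2.20, SE 0.48). The value of Dnmt3c was 3.52 without Dppa2KO replicate 1 and 1.52 without Dppa2KO replicate 2. Dnmt3a (0.08, SE 0.08, adjusted p 0.511) and Uhrf1, which brings Dnmt1 to replicated DNA (−0.05, SE 0.08, adjusted p 0.687), did not pass the test. Dnmt1 had 4850 and 5292 counts against 13819 and 13145. Zfp57, which protects imprints, fell by 0.72 (SE 0.09), Hells, a remodeller needed for methylation of repeats, by 0.60 (SE 0.12) and its partner Cdca7 by 0.43 (SE 0.09). In WT cells Ctbp loss raised Dnmt3a by 1.07, and the difference between the backgrounds was −0.995 (edgeR interaction test, adjusted p 0.000355). For Dnmt3l this difference was 0.90 (adjusted p 0.000844) and for Dnmt1 −0.57 (adjusted p 0.019), which was not called without DKO-Dppa2 replicate 2 (adjusted p 0.0712), CtbpDKO replicate 1 (0.0591) or WT replicate 1 (0.0774).

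Imprinted genes divided evenly, with 11 of 43 (25.6%) called higher and 12 (27.9%) lower, beside 15.2% of all genes in each direction. Peg13, a noncoding RNA, had 87 and 103 counts against 2 and 0. H19, a maternally expressed noncoding RNA, rose from 6 and 6 to 60 and 71 counts (4.13, SE 0.37). Meg3, of the Dlk1-Dio3 cluster, went from 0 and 0 to 6 and 3 counts and was at least 2.51-fold higher, against 19 ± 1.49 CPM in WT (SD, n = 2), so its level stayed far below that of WT. Gnas, which encodes a G protein alpha subunit, fell by 1.03 (SE 0.08), and Zdbf2 by 1.15 (SE 0.23). Rtl1, a retrotransposon-derived gene of the same cluster as Meg3, had 0 and 0 counts against 9 and 15 and was at least 2.24-fold lower. Outside the list and chosen after their values were seen, Gab1, a signalling adaptor, and Sfmbt2, a Polycomb group gene, are both known for imprinting without a DNA methylation mark in the extraembryonic lineage. Gab1 rose from 355 and 316 to 6672 and 7283 counts (5.10, SE 0.11, edgeR adjusted p 4.51e-12) and Sfmbt2 from 194 and 235 to 3660 and 4028 (4.88, SE 0.13, adjusted p 6.43e-11). Both also rose on Ctbp loss in WT cells (2.79 and 5.08) and in DuxKO cells (4.25 and 4.89), where the background was 21.4% of genes higher and 19.6% lower.

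Germline genes were called higher in 16 of 36 tested members (44.4%) and lower in 6 (16.7%), with a median of 1.08, or 1.03 with genes near 0 at their bound. The share of all genes was 15.2% in each direction, so the number lower lies near it. Most of the increases started from very low levels and stayed small in absolute terms. Ddx4, an RNA helicase of germ cells, had 6 and 6 counts against 0 and 0 (at least 3.26-fold higher), Syce1, of the synaptonemal complex, 8 and 15 against 0 and 0 (at least 6.09-fold), and Slc25a31, a testis adenine nucleotide carrier, 8 and 8 against 0 and 0 (at least 4.35-fold). In WT these 3 genes stood at 4.58 ± 0.444, 3.99 ± 0.432 and 0.298 ± 0.0528 CPM, and in DKO-Dppa2 at 0.277 ± 0.0327, 0.518 ± 0.166 and 0.37 ± 0.0436 CPM (SD, n = 2 each). Dazl, a germ cell RNA-binding protein gene, had 4 and 2 counts against 2 and 0 and did not pass the test (adjusted p 0.153). Sycp3, another component of the synaptonemal complex, fell from 100 and 104 to 13 and 12 counts (−2.30, SE 0.33), and Dnd1, a germ cell RNA-binding protein gene, by 1.36 (SE 0.14). Without DKO-Dppa2 replicate 2 the number lower was 3.

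Most genes of the 2-cell embryo stayed near 0. The summed level of the 2-cell list was 57.8 and 54.8 CPM in DKO-Dppa2 against 36.6 and 33.2 CPM in Dppa2KO. Of 26 tested 2-cell genes 18 held 3 counts or fewer in every library of both groups. By edgeR 5 (19.2%) were called higher and 0 lower, beside 15.2% of all genes in each direction. Zscan4c, a widely used marker, had 0 counts in all 4 libraries, which allows up to 3 counts per library. In WT cells Ctbp loss raised 23 of the 26 with a median of 6.28. With these counts near 0 the interaction test called 2 of the 26 as more negative in Dppa2KO cells, 1 when any library of DKO-Dppa2 or Dppa2KO or WT replicate 1 was left out, and 0 without CtbpDKO replicate 2 or WT replicate 2. The called members in Dppa2KO cells were 4 of the Pramel and Pramef family and Trim43b. Pramel6 had 15 and 14 counts against 0 and 0 and was at least 7.9-fold higher, Pramel7 had 4 and 6 against 0 and 0, and Pramef8 rose by 1.29 (SE 0.26). Pramef17, of the separate Pramel list in which 5 of 8 tested members were called higher, had 58 and 30 against 10 and 9 (2.95, SE 0.64, and 2.24 without DKO-Dppa2 replicate 1). Trim43b had 7 and 25 counts against 4 and 0. It lost its call without DKO-Dppa2 replicate 2 (2.57, adjusted p 0.183) and without Dppa2KO replicate 2 (2.65, adjusted p 0.103), and was 7.38 without Dppa2KO replicate 1. The members of these families are near-identical, and how reads were shared among them is not given in the sources used here.

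Trophoblast factors were called higher in 11 of 18 tested members (61.1%) and lower in 2 (11.1%), with a median of 1.79. Of all tested genes 15.2% were called in each direction. Eomes, a T-box gene of trophoblast stem cells, rose from 122 and 109 to 347 and 378 counts (2.37, SE 0.17, edgeR adjusted p 4.13e-07), Ly6a, a surface antigen, from 10 and 23 to 100 and 137 (3.54, SE 0.36, and 4.27 without Dppa2KO replicate 2) and Esx1, a placental homeobox gene of the X chromosome, from 30 and 11 to 79 and 76 (2.64, SE 0.38, and 3.49 without Dppa2KO replicate 1). Rhox6 rose by 3.52, or 2.90 and 4.52 without Dppa2KO replicate 1 and 2. Cdx2, which defines the lineage, had 4 and 11 counts against 15 and 25 and did not pass the test (−0.71, SE 0.68, adjusted p 0.464). The giant cell and spongiotrophoblast markers Prl3d1 and Tpbpa were at 0 in all 4 libraries. Sox21 (−2.69, SE 0.21) and the receptor gene Fgfr2 (−0.99, SE 0.12) fell.

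Primitive endoderm genes fell more often than they rose, whereas 15.2% of all genes were called in each direction. Of 32 tested members 14 (43.8%) were called lower and 9 (28.1%) higher, with a median of −0.63, or −0.39 with genes near 0 at their bound, and without DKO-Dppa2 replicate 2 the numbers were 11 and 5. Pdgfra, a receptor that marks the lineage, fell from 121 and 113 to 17 and 18 counts (−2.02, SE 0.24, edgeR adjusted p 3.31e-05), and the lineage factor Gata6 from 106 and 97 to 24 and 25 (−1.33, SE 0.35), though without DKO-Dppa2 replicate 2 its adjusted p was 0.0755. Hnf4a, a nuclear receptor of visceral endoderm, rose from 8 and 20 to 51 and 94 (3.05, SE 0.48, and 3.87 without Dppa2KO replicate 2). In the DuxKO background the same list went the other way on Ctbp loss, with 27 members called higher and 1 lower and a median of 3.56. The interaction between the Dppa2KO and DuxKO backgrounds was called for 21 members as more negative in Dppa2KO cells and for 1 as more positive, beside 11.4% and 9.44% of all genes. The single positive call was lost without any 1 of the libraries of these groups other than Ctbp-Dux TKO replicate 2, while the negative calls numbered 21 or 22.

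**Figure D3:**
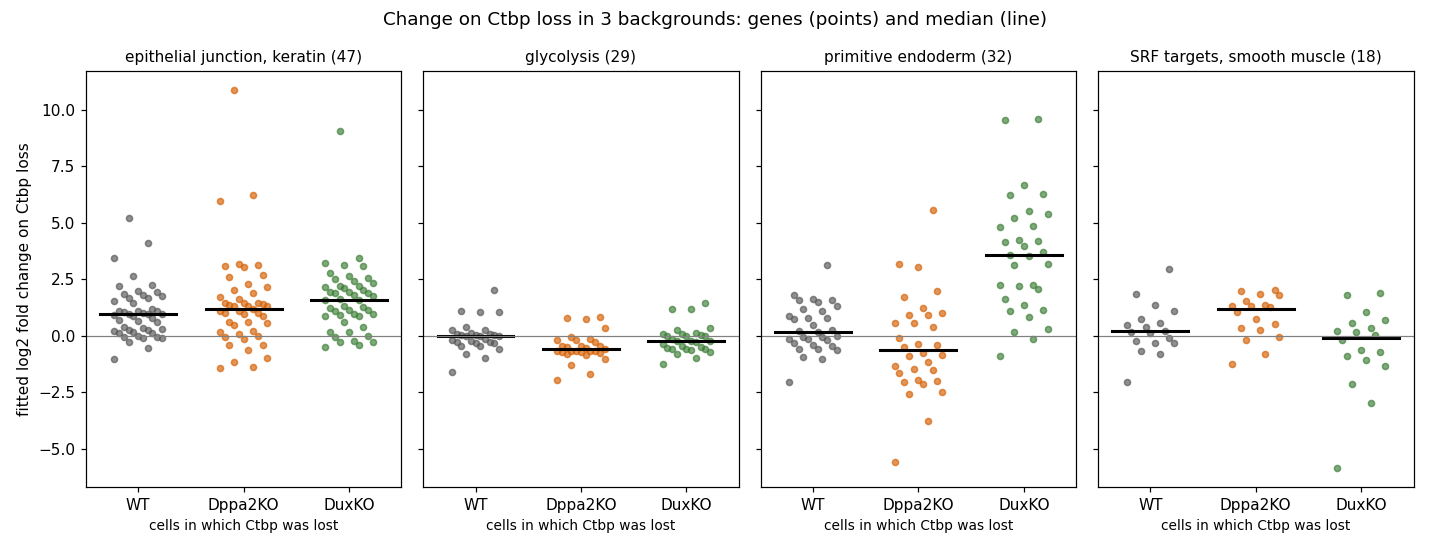
Fitted log2 fold change on Ctbp loss of each tested member (points) and the median (line) in 4 lists, in WT, Dppa2KO and DuxKO cells. In Dppa2KO cells the medians were 1.19 for the epithelial, −0.60 for the glycolysis, −0.63 for the primitive endoderm and 1.17 for the smooth muscle list, and the primitive endoderm median in DuxKO cells was 3.56; points of genes with no counts in 1 group depend on the prior count.

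Markers of other cell types stayed low. The summed level of 12 neural markers was 75.1 and 76.7 CPM in DKO-Dppa2 and 79.8 and 82.4 CPM in Dppa2KO, and Sox1, an early neural factor, fell by 1.58 (SE 0.12). Of the 8 tested neural markers 1, Sox1, was called lower and 1 other was called higher, by 0.46. The 12 mesoderm markers summed to 22.6 and 21.1 CPM against 7.74 and 7.15 CPM, of which Eomes, which the trophoblast list also holds, accounted for 16.7 ± 0.964 CPM in DKO-Dppa2. Of the 10 tested mesoderm markers 1, Eomes, was called higher and 1 other was called lower (−1.82). The share of all genes was 15.2% in each direction. The 12 fibroblast markers summed to 14.9 and 15.6 CPM against 13.5 and 13.2 CPM, with Postn, Prrx1 and Twist2 at 0 in all 4 libraries. Thy1 rose from 22 and 14 to 76 and 83 counts (2.85, SE 0.38). The part of other cell types in the results was not tested.

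Signalling genes moved in both directions. Of 32 Wnt pathway genes 7 were called higher and 7 lower. The ligand genes Wnt7b, with 224 and 253 counts against 47 and 60 (2.87, SE 0.19), and Wnt6 (2.83, SE 0.36) rose, as did Wnt3a, from 4 and 0 to 36 and 54 (5.10, or 8.90 and 4.16 without Dppa2KO replicate 1 and 2). The secreted antagonists Notum (149 and 199 counts against 1682 and 1663, −2.55, SE 0.15) and Sfrp1 (−1.47, SE 0.12), and the cell cycle target Ccnd1 (−1.15, SE 0.09) fell. Among 24 Nodal and Bmp genes 4 rose and 5 fell. Lefty2 (0.93, SE 0.13) and Lefty1 (−1.30, SE 0.16), neighbouring inhibitors of Nodal, went in opposite directions. Skil, a Smad corepressor, fell by 1.14. Of 17 Notch genes 2 rose and 3 fell, of 24 interferon and antigen presentation genes 5 rose and 3 fell, and of 29 Hox genes 2 rose and 1 fell. Most of these small counts lie near the 15.2% of all genes in each direction, and several turned on 1 library. Without DKO-Dppa2 replicate 1 the Nodal and Bmp genes that fell numbered 3, the Notch genes that rose 1, the interferon genes that fell 1 and the Hox genes that fell 0. Without DKO-Dppa2 replicate 2 or Dppa2KO replicate 2 the Notch genes that fell numbered 1, without Dppa2KO replicate 1 the Notch genes that rose numbered 1, and without Dppa2KO replicate 2 the interferon genes that fell and the Hox genes that rose numbered 1 each. The Notch target Hes1 fell by 1.01 (SE 0.14), Ifi35 rose by 3.49 (SE 0.38) and Hoxd3 by 3.85 (SE 0.60).

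Targets of p53 were called higher in 10 of 19 tested members (52.6%) and lower in 1, with a median of 0.31, and without DKO-Dppa2 replicate 2 the number higher was 6. Btg2, an antiproliferative gene, rose by 1.41 (SE 0.17), Perp, a desmosomal effector that the epithelial list also holds, by 1.08 (SE 0.16) and Phlda3 by 0.89 (SE 0.15). Bax, which permeabilises mitochondria in apoptosis, fell by 0.61 (SE 0.10). Among 29 partners and cofactors of CtBP 9 were called higher and 7 lower, or 4 lower without DKO-Dppa2 replicate 2. In the fit of all libraries these shares were 31% higher and 24.1% lower, beside 15.2% of all genes in each direction. Klf8, a Krüppel-like factor, rose by 1.30 (SE 0.17) and Rreb1, a zinc finger repressor, by 0.93. The deacetylase gene Hdac2 fell by 0.75 (SE 0.08), Lcorl by 1.01, Zbtb38 by 0.86 and Kdm1a by 0.40 (SE 0.10, adjusted p 0.00972). Kdm1a lost its call without DKO-Dppa2 replicate 2 (adjusted p 0.0568) and without Dppa2KO replicate 2 (0.0714).

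The response to Ctbp loss was then compared with that in cells with Dppa2. Of the 3230 genes higher in DKO-Dppa2, 53.9% were also higher in CtbpDKO against WT, which is 55.9% of the genes higher there, and of the 3222 lower genes 40.8% were also lower, which is 54.7% of those lower there. Of all tested genes 14.7% were called higher and 11.4% lower in CtbpDKO against WT. Genes called in opposite directions numbered 61 and 78. Against Ctbp loss in DuxKO cells the shared share was 53.2% of the higher and 48.2% of the lower genes (37.9% and 37.4% of the genes called there), with 286 and 317 genes in opposite directions. In that comparison 21.4% of all tested genes were called higher and 19.6% lower. Called in the same direction in all 3 backgrounds were 1213 higher genes (37.6%) and 821 lower genes (25.5%). The chromosome 8 median was 0.50 here and 0.35 in CtbpDKO against WT, and its part in the shared genes was not tested.

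The interaction test asks which changes on Ctbp loss differed between Dppa2KO and WT cells. It called 685 genes (3.23%) as more positive and 1060 (5%) as more negative in Dppa2KO cells, 1745 in all. Leaving out 1 library lowered this total to 1310 without Dppa2KO replicate 1, to 1119 and 1001 without DKO-Dppa2 replicate 1 and 2, to 1114 without Dppa2KO replicate 2, to 1006 and 1054 without CtbpDKO replicate 1 and 2 and to 961 and 773 without WT replicate 1 and 2. Dppa2 itself rose by 0.69 (SE 0.10) on Ctbp loss in WT cells and fell by 0.61 in Dppa2KO cells, a difference of −1.30 (edgeR adjusted p 0.000352). Dppa2 is the gene knocked out in this background, so this value need not measure a changed response to Ctbp loss. Ctbp1 (adjusted p 0.541) and Dppa4, the partner of Dppa2 (0.735), did not pass this test. Gata6 rose by 1.34 in WT cells and fell in Dppa2KO cells, a difference of −2.67 (adjusted p 0.00417). Slc1a1, a glutamate transporter gene, had 646 and 552 counts in Dppa2KO and 66 and 263 in DKO-Dppa2, a change that did not pass the test (−1.19, adjusted p 0.203), but rose by 4.56 in WT cells. Bhmt, a methyltransferase of the methionine cycle, was likewise at 14 and 22 against 12 and 26 counts here and rose by 4.52 in WT cells. In the other direction, Trim67 had 12 and 21 counts against 1 and 0 (at least 8.76-fold higher) and fell by 3.55 in WT cells. Ctcfl, a germline paralogue of the insulator factor CTCF, had 14 and 12 against 0 and 0 (at least 7.11-fold), Rtl8b 40 and 21 against 0 and 1 (at least 17-fold), and Mirg, of the Dlk1-Dio3 cluster, 4 and 7 against 2 and 0. Mirg was not called without DKO-Dppa2 replicate 2 (adjusted p 0.0871) or Dppa2KO replicate 2 (0.0818).

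Among chromosomes 1 to 19 and X, chromosome 8 stood apart. The median log2 fold change of its 611 genes (mean log2 CPM of at least 2) was 0.50, and 386 of them (63.2%) were called higher and 30 (4.91%) lower, while the medians of chromosomes 1 to 7, 9 to 19 and X ran from −0.19 to 0.03. The chromosome 8 median was 0.35 in CtbpDKO against WT and −0.14 in Ctbp-Dux TKO against DuxKO. Cdh1, Mmp2, Sox1, Sfrp1, Trim67 and Gab1 are among the named genes on this chromosome, and its part in the values of its genes was not tested. Without its genes 2802 genes were called higher and 2985 lower. The epithelial list then had 31 of 43 members higher, instead of 33 of 47, and 5 lower. The DNA copy number of these lines was not measured in the data used here.

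**Figure D4:**
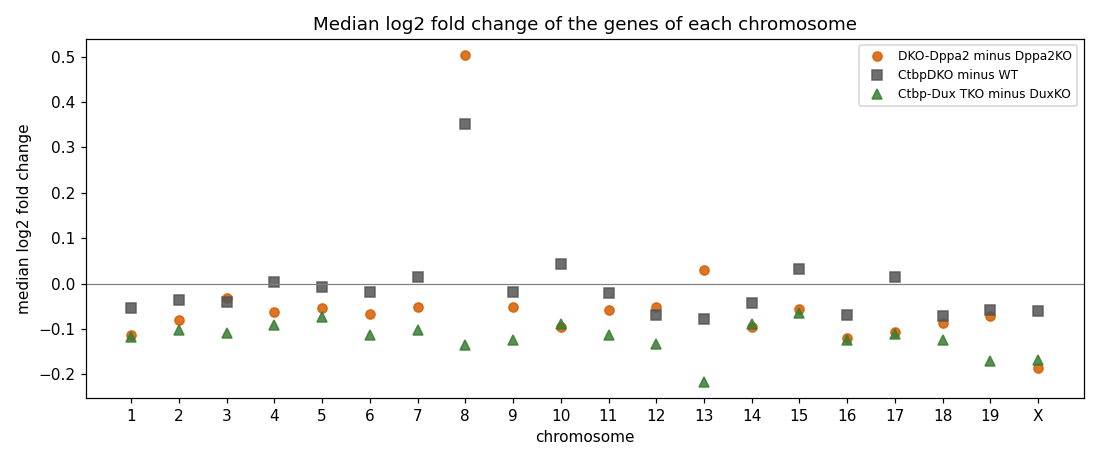
Median log2 fold change of the genes of each chromosome on Ctbp loss in Dppa2KO, WT and DuxKO cells, for chromosomes 1 to 19 and X and without error bars. In Dppa2KO cells chromosome 8 lies at 0.50 and the others drawn lie between −0.19 and 0.03.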

How the data were processed

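RNA was sequenced from mouse embryonic stem cells with a stranded Collibri kit, per the labels. The deposited table holds whole-number read counts per gene for 55276 genes. The submitters' processing notes name Trim Galore, HISAT2, featureCounts, Bismark and the build mm10, with no roles, order or versions, and the strand setting of counting is not given in the sources used here, so values of overlapping, antisense and near-identical genes are uncertain.

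Libraries were grouped by their descriptions. Counts of all 12 libraries were fitted together with edgeR 4.0.16 (R 4.3.3, limma 3.58.1; TMM scaling, filterByExpr, prior count 0.125, quasi-likelihood test, group as the only term), with Benjamini-Hochberg adjustment at 0.05. The difference between backgrounds was an interaction contrast in the same fit. The 4 libraries held 19944644 to 36025046 counts. With 2 libraries per group the spread rests on pooling over genes and groups. The floor was 3 counts per library. The script was tested on simulated data.

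The members and the 25 gene lists were chosen with earlier results of these data known. Named genes were the targeted genes; up to 15 called, non-overlapping genes per direction with at least 50 mean counts and no clone name; up to 4 called genes per direction and list; stated representatives of lists; and up to 6 interaction genes per direction. A few genes that this rule names are not reported here. Promoter windows, 250 bases before to 50 after the start, came from RefSeq on GRCm38.p6 and matched by symbol for 12523 of the 21193 tested genes. Alternatives were upper quartile scaling, no filter, a replicate block, a prior count of 2, a fit of only the groups compared, DESeq2 1.42.0, a minimum log2 change of 1, leaving out genes of named chromosomes, and leaving out each library.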

Additional observations from a re-analysis of the deposited data

Results flagged for a closer look

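The results below are the named genes whose change on Ctbp loss differed between Dppa2KO and WT cells by edgeR's interaction test. Each value is the log2 fold change in Dppa2KO cells minus that in WT cells. For genes near 0 counts in a group the value depends on the prior count and is no bound. No group has enough libraries for a test of single libraries that stand apart.

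Among genes whose response was more negative in Dppa2KO cells, Zscan4b, a 2-cell marker with 110 and 214 counts in CtbpDKO and at most 3 in the 4 libraries described here, had a value of −13.57 (adjusted p 0.026), which was not called with DESeq2 (adjusted p 0.346) or without Dppa2KO replicate 2 (adjusted p 1), CtbpDKO replicate 2 (0.0602) or WT replicate 2 (0.0512). Slc1a1 had −5.75 (adjusted p 0.00617), Bhmt −3.90 (0.00569), Gata6 −2.67 (0.00417) and Dppa2 −1.30 (0.000352). The value of Dppa2, the gene knocked out, need not measure a changed response. Eif4a3l1 had −5.08 (0.0427), which was not called with the replicate block (0.0581), when no other group entered the fit (0.06) or without DKO-Dppa2 replicate 1 (0.0746) or 2 (0.0894), CtbpDKO replicate 1 (0.0906) or 2 (0.0806) or WT replicate 2 (0.0949). Without Dppa2KO replicate 2 it was −1.27 (0.904). Klb had −3.58 (0.0237), not called without either DKO-Dppa2 library, Dppa2KO replicate 2, CtbpDKO replicate 2 or WT replicate 2. Faim2 had −3.40 (0.0366), not called when any 1 of the 8 libraries was left out.

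In the methylation and corepressor genes the values were −0.995 for Dnmt3a (adjusted p 0.000355), −0.66 for Kdm1a (0.0166), −0.57 for Dnmt1 (0.019), −0.42 for Uhrf1 (0.0402) and 0.90 for Dnmt3l (0.000844). Uhrf1 was not called with the replicate block (0.0661), with upper quartile scaling (0.0617), when no other group entered the fit (0.0749) or when any 1 of the 8 libraries was left out, Dnmt1 was not called without DKO-Dppa2 replicate 2, CtbpDKO replicate 1 or WT replicate 1, and Kdm1a was not called without DKO-Dppa2, Dppa2KO, CtbpDKO or WT replicate 2. In the glycolysis genes they were −1.29 for Hk1 (0.000844), −0.76 for Slc2a3 (0.00203) and −0.62 for Pfkl (0.00399).

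Among genes whose response was more positive, Meg3 had 8.95 (adjusted p 0.000276), Mirg 7.004 (0.000355), Trim67 8.93 (0.000518), Rtl8b 5.93 (0.00219) and Ctcfl 5.76 (0.0128). Meg3 and Mirg, of 1 imprinted cluster, had at most 7 counts in the 4 libraries and fell on Ctbp loss in WT cells. Rnu3b1, a small nucleolar RNA gene, had 6.26 (0.0262), but its counts in DKO-Dppa2 were 675 and 31562, and the value was 1.91 (0.214) without DKO-Dppa2 replicate 2. Rnu3b1 was also not called without Dppa2KO replicate 1 (0.0819), CtbpDKO replicate 1 (0.0662), CtbpDKO replicate 2 (0.102) or WT replicate 1 (0.0841).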

How the results depend on the processing

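The number of genes called between DKO-Dppa2 and Dppa2KO, 6452, lay between 4536 and 6851 under every alternative except a minimum log2 change of 1, which left 2595. That minimum left 709 of 1745 for the interaction with the WT background and 2206 of 4409 for that with the DuxKO background. Leaving out 1 library gave 4536 to 4947 genes for the main comparison, 773 to 1310 for the first interaction and 3009 to 4267 for the second. Upper quartile scaling moved the median of all genes to 0.05 and gave 3508 genes higher and 2871 lower.

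Replicate numbers are shared between the groups, but no label states that they pair the libraries. Deviations of same-numbered libraries correlated at −0.018 for Dppa2KO with DKO-Dppa2 and −0.064 for WT with CtbpDKO. Values near 0 do not settle whether libraries were handled in pairs. With a replicate block 6016 genes were called in the main comparison, 1354 in the first interaction and 3966 in the second, and of the log2 fold changes in the report that of Sox2 lost its call (adjusted p 0.0574).

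Of the 143 genes with values in the report that were called, none changed sign. Of those not called, the log2 fold change of Zeb1, −0.01, was 0.0297 with upper quartile scaling, 0.00392 when no other group entered the fit and between −0.17 and 0.15 when 1 library was left out. That of Zeb2, −0.26, lay between −1.28 and 0.37 when 1 library was left out. The cause was not tested. Leaving out the genes of chromosome 8, chosen after the data were seen, gave 5787 called genes. Depth limits the genes near the floor of 3 counts, where single reads set the fold.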
